A study of Mus musculus with 2 samples.

Results

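The actin genes were followed in total RNA-seq of the mouse heart at embryonic day 13.5. The 6 members, Actc1, Acta1, Acta2, Actg2, Actb and Actg1, were found by matching the gene identifiers of both quantification files, without version, to GENCODE gene symbols, and all 6 were present among 42462 matched genes. The matching rule uses no measured value, but the family was picked with earlier results of these data known. The study holds 1 group of 2 libraries, replicates 1 and 2, from untreated heart tissue of the strain B6NCrl, a C57BL/6N substrain, and each library is a pool of male and female embryos. The labels record no mutation or transgene, put both tissue samples under the same donor entry, and give no control group. The libraries were made from 10 ng of RNA longer than 200 nt with spike-in RNA added, so the comparisons available were between genes within a library and between the replicates.

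Actin is the protein of thin filaments in muscle and of microfilaments in all cells. Mammals carry a gene each for the cardiac alpha (Actc1), skeletal alpha (Acta1), smooth muscle alpha (Acta2) and smooth muscle gamma (Actg2) forms, and for the cytoplasmic beta (Actb) and gamma (Actg1) forms. The embryonic heart is known to co-express several muscle actins, and many muscle actin promoters carry CArG boxes, the binding motif of serum response factor.

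The coding sequences start differently in each gene, and the first 45 coding bases are shown because they separate the 6 genes that the values below are assigned to. They were read from GRCm38 (mm10) with the GENCODE M21 annotation, on the minus strand, within a coding exon of each gene. Capitals mark bases that differ from Actc1 when the whole coding sequences are aligned.
Actc1: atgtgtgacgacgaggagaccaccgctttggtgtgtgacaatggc
Acta1: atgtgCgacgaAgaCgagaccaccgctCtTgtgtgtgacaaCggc
Acta2: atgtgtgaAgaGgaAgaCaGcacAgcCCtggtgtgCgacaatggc
Actg2: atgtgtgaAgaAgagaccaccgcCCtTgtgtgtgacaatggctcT
Actb: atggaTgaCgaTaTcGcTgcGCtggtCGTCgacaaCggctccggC
Actg1: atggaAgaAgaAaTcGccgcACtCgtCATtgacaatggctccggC
In this stretch Acta1 and Actg2 differed from Actc1 at 6 aligned bases each, Acta2 at 9, Actg1 at 12 and Actb at 14. Actg2 lacked 3 aligned bases of the Actc1 start, and Actb and Actg1 lacked 6. The stretches lie at chr2:114051987-114052031 (Actc1), chr8:123893653-123893697 (Acta1), chr19:34252509-34252553 (Acta2), chr6:83527397-83527441 (Actg2), chr5:142905642-142905686 (Actb) and chr11:120348047-120348091 (Actg1).

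Over the whole coding sequence, without the stop codon, the 3 alpha actins are 1131 nt long, Actg2 is 1128 nt, and Actb and Actg1 are 1125 nt. The most alike coding sequences were the cytoplasmic pair, with 88.6% identical bases and 128 mismatches between Actb and Actg1. The striated pair Actc1 and Acta1 shared 86.3%, and the smooth muscle pair Acta2 and Actg2 shared 84.2%. The least alike were Acta2 and Actg1, at 81.5%.

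Cardiac actin was the leading actin of the E13.5 heart, and the other muscle actins ranged down to Actg2, the lowest of the 6. Levels are given as TPM (a transcript abundance corrected for length and depth), with the mean ± SD over 2 libraries. Actc1 (ENSMUSG00000068614.7, chromosome 2, 114047282 to 114053548), the actin of the cardiac sarcomere, reached 8858 TPM in replicate 1 and 10485 in replicate 2 (9672 ± 1150, n = 2). It ranked 6 among 21461 nuclear protein-coding genes. Acta1 (ENSMUSG00000031972.4, chromosome 8, 123891769 to 123894751), the actin of skeletal muscle sarcomeres, stood at 227 and 309 TPM (268 ± 58.1, n = 2), rank 422. In TPM all 6 actins were higher in replicate 2, as was the median of all genes, by a log2 ratio of 0.15.

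Of the smooth muscle forms, Acta2 (ENSMUSG00000035783.8, chromosome 19, 34241090 to 34255590), the alpha actin of vascular smooth muscle, reached 956 TPM in replicate 1 and 1093 in replicate 2 (1025 ± 96.4, n = 2), rank 79. Actg2 (ENSMUSG00000059430.10, chromosome 6, 83512905 to 83536265), the enteric smooth muscle form, was measured at 11.8 and 17.0 TPM (14.4 ± 3.63, n = 2), rank 6299. The alpha form therefore exceeded the gamma form by 80.8-fold in replicate 1 and 64.4-fold in replicate 2.

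The cytoplasmic actins, which build the cortex and stress fibres of non-muscle cells, were both abundant. Actb (ENSMUSG00000029580.10, chromosome 5, 142903115 to 142906754) reached 1808 TPM in replicate 1 and 2146 TPM in replicate 2 (1977 ± 239, n = 2), rank 32. Actg1 (ENSMUSG00000062825.11, chromosome 11, 120345690 to 120348542) reached 1004 and 1012 TPM (1008 ± 5.43, n = 2), rank 83. Each of the 6 genes lay above 1 TPM in both libraries, as did 57.3% of 21474 protein-coding genes. In bulk tissue, fewer cells of a type and less RNA per cell cannot be told apart, so these are levels of the mixed tissue.

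**Figure D1:**
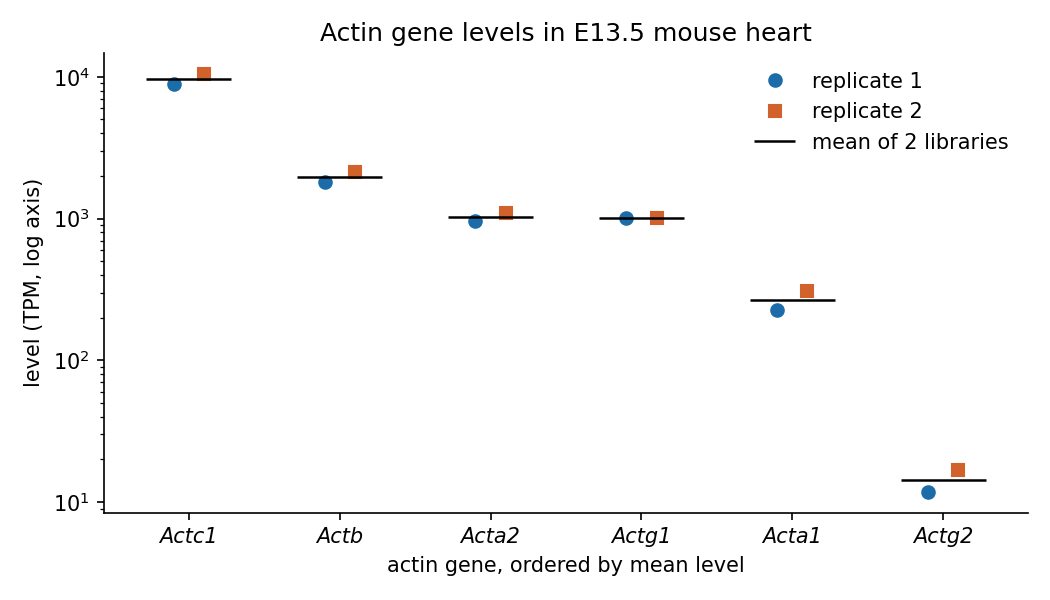
Level of each actin gene in TPM on a log axis, with 1 point per library (circle, replicate 1; square, replicate 2) and a bar at the mean of 2 libraries. Actc1 lies highest at 8858 and 10485 TPM, Acta2 and Actg1 lie side by side at means of 1025 and 1008 TPM, and Actg2 lies lowest at 11.8 and 17.0 TPM.

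The expected counts behind these values, summed over all listed features with spike-ins, were 36733400 in replicate 1 and 36060765 in replicate 2. Reads not assigned to a listed feature are outside these totals. Actc1 held 356491 and 394678 reads, Actb 95398 and 105400, Actg1 50473 and 47461, and Acta2 47126 and 50359. Acta1 held 8869 and 11297 reads and Actg2 417 and 564, so Actg2 was measured with the least precision. Together the 6 genes took 1.52% of all assigned reads in replicate 1 (95% Wilson interval 1.517% to 1.525%) and 1.69% in replicate 2 (1.687% to 1.695%). These intervals cover counting error only, as reads lacking molecular identifiers may be copies of 1 molecule. Summed TPM of the family was 12865 and 15061 (13963 ± 1553, n = 2).

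The deposited files also give a credibility interval for each TPM, whose level is not stated. For Actc1 it ran from 8657 to 8716 TPM in replicate 1 and from 10235 to 10302 in replicate 2. For Acta2 it ran from 929 to 946 and from 1061 to 1080, for Actb from 1762 to 1785 and from 2089 to 2115, and for Actg1 from 976 to 995 and from 982 to 1002. In these 4 genes the deposited TPM lay above its own interval in both libraries, and in Acta1, with intervals of 218 to 227 and 297 to 308, it did so in replicate 2. Only Actg2, with intervals of 10.8 to 13.2 and 15.6 to 18.6, held its TPM in both. Among 13627 genes of at least 1 TPM in both libraries, 2.05% lay above their interval in replicate 1 and 2.77% in replicate 2. The deposited posterior mean TPM lay inside the interval for each actin in both libraries. For Actc1 it was 0.981 times the TPM in replicate 1.

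The make-up of actin RNA was close to equal in both libraries. Actc1 made 68.9% of summed actin TPM in replicate 1 and 69.6% in replicate 2 (69.2% ± 0.54, n = 2). Actb made 14.1% and 14.2% (14.1% ± 0.14), and Acta2 made 7.43% and 7.26% (7.34% ± 0.13). These 3 shares moved by less than 1 percentage point between libraries.

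The cytoplasmic gamma form moved more in percentage points. Actg1 made 7.80% in replicate 1 and 6.72% in replicate 2 (7.26% ± 0.77), the largest spread of the 6 shares on that scale. Acta1 made 1.76% and 2.05% (1.91% ± 0.20), and Actg2 made 0.0920% and 0.113% (0.102% ± 0.015). Relative to their smaller means, the spreads of Acta1 and Actg2 were no smaller than that of Actg1.

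By form, the striated actins held 71.1% ± 0.74 of actin TPM, the smooth muscle actins 7.45% ± 0.11 and the cytoplasmic actins 21.4% ± 0.63 (n = 2). The 4 muscle genes held 78.1% in replicate 1 and 79.0% in replicate 2. Muscle actin RNA thus exceeded cytoplasmic actin RNA by 3.58-fold in replicate 1 and 3.77-fold in replicate 2 (3.67 ± 0.14, n = 2).

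**Figure D2:**
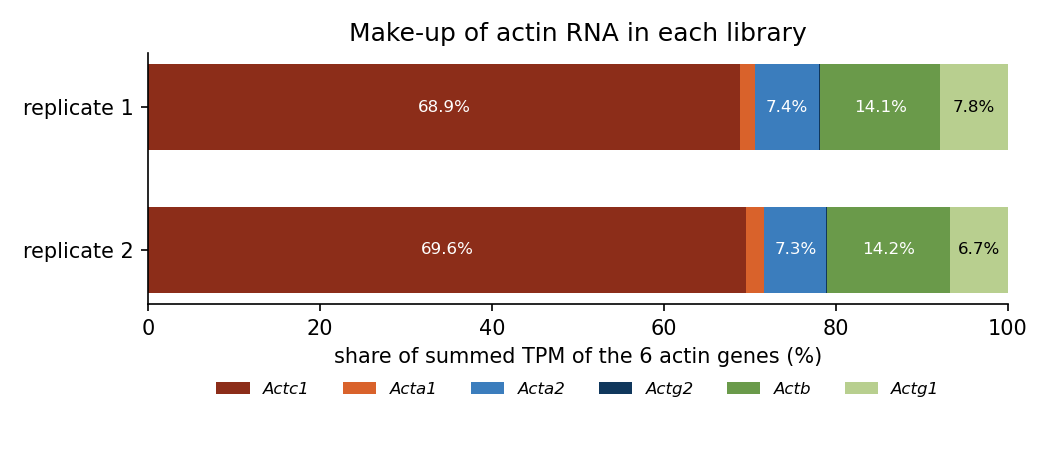
Share of the summed TPM of the 6 actin genes held by each gene, as 1 stacked bar per library from 0 to 100%. Actc1 fills 68.9% and 69.6%, Actb 14.1% and 14.2%, and the sliver of Actg2 is 0.0920% and 0.113%.

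The order of the levels was read from all 15 gene pairs. A pair was called where its direction was shared by both libraries and its deposited intervals were apart in each, which describes these libraries and is no test. By this rule 14 of 15 pairs were called, and 12 of 15 differed at least 2-fold in both libraries. The order was Actc1, then Actb, then Acta2 and Actg1, then Acta1, then Actg2.

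Acta2 and Actg1 were the neighbours that did not differ beyond their spread. Acta2 was lower by a log2 difference of -0.07 in replicate 1 and higher by 0.11 in replicate 2 (mean 0.02 ± 0.13, n = 2). Actc1 over Actb, the leading muscle over the leading cytoplasmic actin, had the steadiest ratio of the pairs, at 4.90-fold in replicate 1 and 4.89-fold in replicate 2 (log2 2.29 ± 0.0028). The ratio that moved most was Actg1 over Actg2, at 84.8-fold and 59.6-fold.

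Within the alpha actins, Actc1 exceeded Acta1 by 39.0-fold in replicate 1 and 33.9-fold in replicate 2, and Acta2 by 9.26-fold and 9.60-fold. Acta2 exceeded Acta1 by 4.21-fold and 3.54-fold, so that smooth muscle alpha actin stood above skeletal alpha actin in both heart libraries. Within the cytoplasmic pair, Actb exceeded Actg1 by 1.80-fold and 2.12-fold. Actb exceeded Acta2 by 1.89-fold and 1.96-fold, the other called pair under 2-fold in at least 1 library.

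The replicates were compared gene by gene. Ratios were taken from rounded expected counts scaled with edgeR's TMM factors, with 0.5 added, as replicate 2 minus replicate 1 on the log2 scale. None of the 6 genes was 2-fold or more apart, as were 1.01% of 13766 genes with a mean count of at least 50 (0.741% higher and 0.269% lower in replicate 2). At that share a count of 0 among 6 genes says nothing particular about the actins, whose median ratio without regard to sign was 0.12, against 0.097 over all genes. With 1 library a side there is no p-value, and over these genes the counts of the libraries differed by 25.2 times the variance that counting alone gives.

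Actg2 had the largest ratio of the family, 0.39 with a 95% counting interval of 0.21 to 0.57, and 7.54% of genes had a ratio of larger size. Acta1 followed with 0.30 (0.26 to 0.34), exceeded in size by 11.8% of genes. These were the members with the fewest reads.

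The abundant members lay closer to 0. Actc1 had a ratio of 0.10, Actb 0.098 and Acta2 0.050, exceeded in size by 48.0%, 49.3% and 72.2% of genes. Actg1 alone was lower in replicate 2 on this scale, at -0.13 (-0.15 to -0.12), while its TPM ratio was 0.011. The TPM ratios of all genes had a median of 0.15, so the small SD of Actg1 in TPM does not stand for equal scaled counts.

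The direction depended on the scale. Spike-in RNA took 5.96% of assigned reads in replicate 1 and 2.56% in replicate 2. Scaling by spike-ins moved the median of all genes to 1.29, with all 6 actins and 93.1% of genes then at least 2-fold apart. Scaled by the summed counts of cardiomyocyte markers, 4 actins were higher and 2 lower in replicate 2, Acta2 at -0.019 and Actg1 at -0.20. Relative to the median of all genes, 5 actins lay above and Actg1 lay below under each of the 6 scalings run. The scalings other than the TPM ratio shift all genes by nearly the same amount. Subtracting the median removes that shift, so their agreement was fixed in advance and only the TPM ratio is a separate measure.

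**Figure D3:**
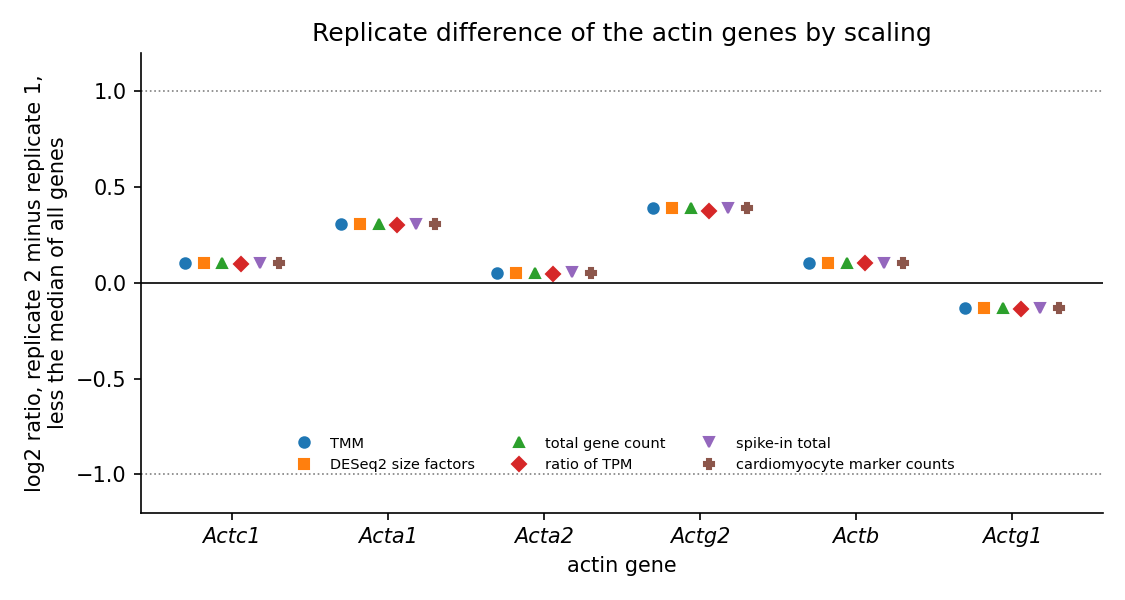
Log2 ratio of replicate 2 over replicate 1 for each actin gene, less the median ratio of all genes, under 6 scalings (symbols); dotted lines mark a 2-fold difference. The symbols of a gene nearly coincide, with Actg2 highest and Actg1 the gene below 0. For the scalings other than the TPM ratio they coincide by construction, since subtracting the median removes the scaling.

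Marker lists of several cell types were read beside the actins. Passing 1 TPM does not single out a tissue here. All 6 endothelial, 8 fibroblast and mesenchyme and 6 erythroid markers passed in both libraries, and 5 of 6 liver markers did. So did 57.3% of protein-coding genes. All 9 cardiomyocyte markers were above 1 TPM, from Nkx2-5, a cardiac transcription factor, at 110 ± 7.57 TPM to Myl2, the ventricular regulatory light chain, at 6763 ± 1054 TPM. Their summed TPM was 20369 in replicate 1 and 24519 in replicate 2, and Actc1 stood at 0.435 and 0.428 times this sum. Actc1 over Myl2 was 1.47-fold in replicate 1 and 1.40-fold in replicate 2, and Actc1 over Tnnt2, cardiac troponin T, was 2.05-fold and 2.06-fold.

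Of 12 skeletal muscle markers, 5 were above 1 TPM in both libraries, and the list summed to 215 TPM in replicate 1 and 279 in replicate 2. Its highest member was Ckm, muscle creatine kinase, which the heart also expresses, at 195 ± 32.3 TPM, and its lowest Pax7, a marker of muscle stem cells, at 0.015 TPM. None of its defining markers was at 0 in both libraries. All 7 members with a mean count of at least 50 were higher in replicate 2 with TMM, with a median ratio of 0.30, against -0.0056 over protein-coding genes. Myog, a factor of skeletal muscle differentiation, at 1.15 and 2.90 TPM, and Myh3, the embryonic skeletal myosin, at 0.58 and 1.30 TPM, were at least 2-fold apart. Acta1, with its ratio of 0.30, moved in the same direction, and the part of skeletal muscle RNA in its level was not tested.

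The smooth muscle list held 7 of 8 markers above 1 TPM and summed to 600 and 712 TPM, with none at 0. Des, desmin, which striated muscle shares, led it at 327 ± 30.8 TPM, and Lmod1, a smooth muscle leiomodin, was lowest at 1.04 ± 0.099 TPM. Acta2 alone stood at 1.59 times the summed level of the list in replicate 1 and 1.53 times in replicate 2. Myh11, the smooth muscle myosin heavy chain, was named after its values were seen: at 2.14 and 2.54 TPM it lay 447-fold and 430-fold below Acta2. The rest of the list was also named after its values were seen. Cnn1 stood at 139 ± 22.9 TPM, Tagln at 111 ± 24.6 and Smtn at 62.6 ± 0.91 TPM. Itga8 stood at 7.9 ± 0.66 and Mylk at 4.38 ± 0.14 TPM. Acta2 exceeded Tagln by 10.2-fold in replicate 1 and 8.50-fold in replicate 2. The distance between Acta2 and a smooth muscle marker thus depended on the marker.

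Markers of other cell types were compared between the replicates as well. Of 8 fibroblast and mesenchyme markers, 7 were lower in replicate 2 with TMM (median ratio -0.28, summed TPM 1646 and 1422), from Pdgfra at 13.3 to Col3a1 at 577 TPM. Of the 6 endothelial markers, 4 were lower and 2 higher in replicate 2 with TMM. Their median ratio was -0.095, against a median size of 0.097 over all genes. They summed to 327 and 357 TPM, from Kdr at 26.9 to Egfl7 at 142 TPM. The part of these cells in the lower Actg1 ratio was not tested. The 6 liver markers, from Fgb at 2.71 to Afp at 93.7 TPM, were all at least 2-fold higher in replicate 2 with TMM (summed TPM 57.8 and 374), as were 0.741% of all genes. The 6 erythroid markers, from Epb42 at 6.29 to Alas2 at 192 TPM, did not share a direction: 3 were higher and 3 lower with TMM, with a median ratio of 0.045. Their summed TPM of 316 and 239 followed Alas2, at 238 and 147 TPM, while Klf1, at 3.83 and 12.7 TPM, and Hemgn, at 2.41 and 10.3 TPM, were at least 2-fold higher in replicate 2.

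Transcript estimates placed most actin genes on a single transcript. Actc1-201 held 99.98% of Actc1 TPM in both libraries, and Acta1 and Acta2 were listed with 1 transcript each. Actb-201 held 98.1% and 97.3% of Actb. In these 4 genes 1 transcript thus held nearly the whole level.

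Actg1 was divided between Actg1-202, of 1952 nt and 6 exons, with 55.9% in replicate 1 and 51.0% in replicate 2, and Actg1-204, of 1827 nt and 5 exons, with 35.5% and 40.5%. Both carry the same coding exons of 1125 nt, so the difference lies in noncoding exons. Their TPM intervals did not overlap in either library, at 527 to 578 against 319 to 372 in replicate 1 and 478 to 527 against 378 to 429 in replicate 2.

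Actg2 was the gene whose division was least certain. Actg2-201, of 1333 nt, held 47.9% in replicate 1 and 78.3% in replicate 2, while Actg2-202, of 1273 nt, held 52.1% and 20.3%. They too share all coding exons, of 1128 nt. Their intervals overlapped in replicate 1, at 2.75 to 10.7 TPM against 0.00068 to 8.31 TPM, and were apart in replicate 2, at 8.47 to 16.4 TPM against an upper bound of 7.23 TPM. The intervals of Actg2-201 in the 2 libraries overlapped each other, so a change of leading transcript between the replicates was not resolved.

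The genes differ in how much sequence they share with other genes, which limits how far their reads can be told apart. Windows were searched in GENCODE M21 transcripts, whereas the deposited counts used annotation M4. Of 14 pseudogenes that share windows in M21, 9 are in the deposited files. The shares thus describe the sequence and not the exact overlap met in the counting. Of the 50-nt windows of the leading transcript, none in Actc1 or Actg2 occurred in a transcript of another gene, against 0.352% in Acta2, 2.22% in Acta1, 14.2% in Actb and 56.7% in Actg1. At 100 nt, the fragment length that the deposited effective lengths imply, no actin shared a window with another actin. Actb then shared 1.10% and Actg1 51.1% with other genes. The expected counts were whole for Actc1, Acta1, Acta2 and Actg2 and not whole for Actb and Actg1.

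Processed pseudogenes held most of what Actg1 shared. Gm12715 matched 51.1% of its 50-nt windows and was listed at 6.41 and 8.86 TPM, and Gm8399 matched 35.6% and was listed at 1.99 and 2.24 TPM. The 9 pseudogenes in the files that share windows with an actin summed to 10.6 TPM in replicate 1 and 12.4 TPM in replicate 2. In expected counts rather than TPM, they held 0.544% and 0.694% of the number given to Actg1. Reads of Actg1 and its copies cannot be fully separated, so the level of Actg1 carries this uncertainty. Actb shared 9.57% of its 50-nt windows with Lrrc58, listed at 28.8 and 28.7 TPM.

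**Figure D4:**
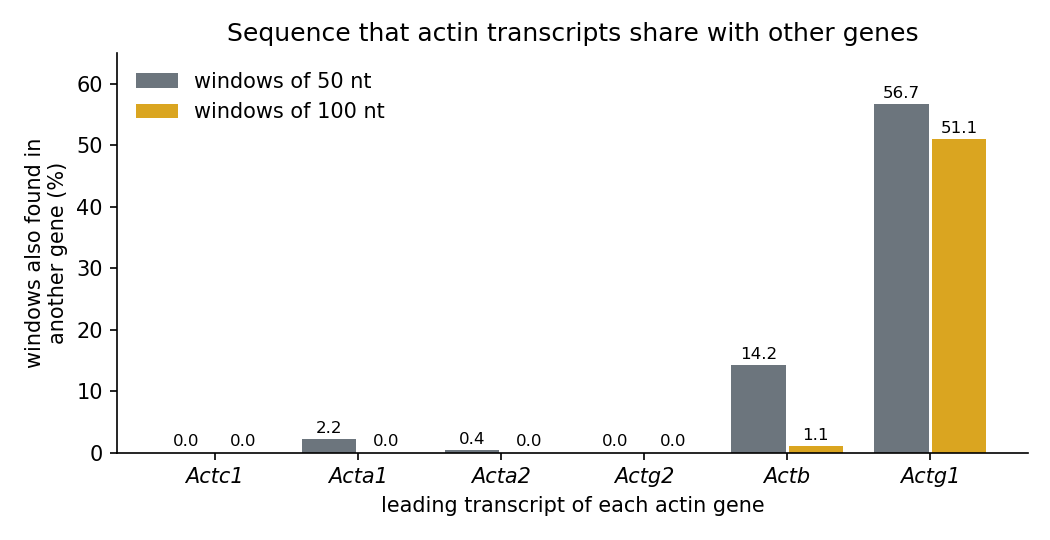
Percent of the 50-nt (grey) and 100-nt (yellow) windows of each actin's leading transcript that also occur in a GENCODE M21 transcript of another gene. Actg1 stands at 56.7% and 51.1%, Actb at 14.2% and 1.10%, and the 4 muscle actins at 2.22% or below.

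Genes on the opposite strand overlap both striated actins, and the strand setting of the counting is unknown here. A530058N18Rik (ENSMUSG00000092201.3), which spans Actc1, was listed at 0.35 and 0.44 TPM, far below Actc1. Gm20388, a long gene model that spans Acta1, had 0.06 TPM in replicate 1 and 2.06 in replicate 2, with 7.14 and 218 reads, against 227 and 309 TPM for Acta1.

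Promoter sequence from RefSeq (GRCm38.p6, 250 bases before to 50 after the start) was matched by symbol for 4 members, Actc1, Acta1, Acta2 and Actg1. Both strands were searched for the CArG box, which is CC, then 6 bases of A or T, then GG, and for the like motif with 1 G or C among the 6. The best matches are shown, with the motif in capitals, because the CArG box is the binding motif of serum response factor. A relation between motif and level was not tested.
Actc1 CArG box: gctaaggcgaCCAAATAAGGcaaggtggca
Acta1 CArG box: tgcccgacacCCAAATATGGcttgggaagg
Actg1 CArG box: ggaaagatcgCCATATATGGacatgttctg
Acta2 CArG-like, distal: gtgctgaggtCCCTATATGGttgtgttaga
Acta2 CArG-like, proximal: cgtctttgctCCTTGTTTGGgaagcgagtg
The motif began 47 bases before the start of Actc1, 73 before Acta1 and 90 before Actg1. In Acta2 the CArG-like motifs began 84 and 34 bases before the start. The stretches lie on the minus strand at chr2:114052903-114052932 (an Actc1 intron in GENCODE M21), chr8:123894829-123894858 (outside Acta1), chr11:120348566-120348595 (outside Actg1), and chr19:34255438-34255467 and chr19:34255388-34255417 (a noncoding Acta2 exon).

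An exact CArG box was present in 3 of the 4 windows, among 1.63% of 32851 promoter windows of the same length. The CArG-like form occurred 3 times in Actc1, 2 times in Acta1 and 2 times in Acta2, and in 8.50% of all windows. TATAAA on either strand occurred once in Actc1 and once in Acta1, and in 13.6% of all windows. The motif matches describe the sequence and are not binding data.

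The factors of this axis were all present at modest levels. Myocd, the muscle-restricted coactivator of serum response factor, stood at 50.4 ± 1.92 TPM, and the actin-regulated coactivators Mrtfa and Mrtfb stood at 11.8 ± 1.55 and 10.2 ± 0.049 TPM. Srf itself stood at 5.44 ± 0.35 TPM. All 4 exceeded the protein-coding median of 3.07 TPM.

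Genes whose proteins handle actin were read from 7 lists with 88 genes. Of these, 82 were above 1 TPM in both libraries, as were 57.3% of all 21474 protein-coding genes. None of the 83 with a mean count of at least 50 was 2-fold apart between the replicates with TMM, a count near the 1.01% of all genes that were. Across these lists the median level ran from 11.0 TPM for the serum response factor axis to 223 TPM for folding and modification.

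Monomer binding and turnover had 13 of 13 members above 1 TPM and a median of 166 TPM. Its leading member Tmsb4x, thymosin beta-4, which sequesters actin monomers, stood at 2456 and 2476 TPM (2466 ± 14.0, n = 2), above Actb in both libraries. Pfn1, profilin-1, which feeds monomers to growing filaments, stood at 1267 ± 47.1 TPM, Cfl1, the severing factor cofilin-1, at 1242 ± 93.0 TPM, and Tmsb10, thymosin beta-10, at 1091 ± 23.6 TPM. The list summed to 7331 TPM in replicate 1 and 7739 in replicate 2, against 12865 and 15061 for the actins.

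Folding and modification, mainly the CCT chaperonin that folds actin, had 11 of 11 members above 1 TPM. Cct3 led at 340 ± 39.9 TPM, followed by Cct5 at 293 ± 24.6, Tcp1 at 263 ± 28.0 and Cct8 at 246 ± 30.9 TPM. Of its members, 9 were higher and 2 lower in replicate 2 with TMM, with a median ratio of 0.041, against -0.0056 over protein-coding genes and a median size of 0.097 over all genes.

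Nucleation and elongation had 23 of 24 members above 1 TPM in both libraries, with a median of 32.0 TPM. It was led by subunits of the Arp2/3 complex, which starts branched filaments: Arpc2 at 335 ± 34.1, Actr3 at 227 ± 19.6, Arpc4 at 218 ± 18.9 and Arpc5 at 160 ± 7.86 TPM. The exception was Lmod1, at 0.97 and 1.11 TPM.

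End capping had 6 of 7 members above 1 TPM. The barbed-end cappers Capzb, Capza2 and Capza1 stood at 304 ± 16.6, 162 ± 12.4 and 127 ± 14.3 TPM, and the pointed-end capper Tmod1 at 141 ± 11.6 TPM. Tmod4, a skeletal muscle tropomodulin, was the exception at 0.64 and 1.16 TPM.

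Crosslinking and anchoring had 17 of 19 members above 1 TPM, and Vil1, villin of the gut brush border, at 0.35 and 0.16 TPM and Xirp2 at 0.06 and 0.09 TPM lay below. Actn2, the alpha-actinin that anchors thin filaments in the Z-disc, led at 830 ± 52.3 TPM, followed by Nebl at 187 ± 23.1, Actn4 at 182 ± 9.72 and Msn at 145 ± 3.76 TPM. With TMM, 15 of the 17 were lower in replicate 2 and 2 higher, with a median ratio of -0.15, against -0.0056 over protein-coding genes. The spike-in scale shifts all genes by nearly the same amount, so its medians of 1.14 for the list and 1.29 for all genes repeat this offset. In TPM ratios, a separate measure, the median of the list was -0.0040, against 0.15 over all genes.

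Actin-related proteins had 8 of 10 members above 1 TPM, with a median of 30.1 TPM. The leading members were Actr1a and Actr1b of dynactin at 86.4 ± 4.96 and 70.2 ± 5.38 TPM, Actl6a of chromatin remodelling complexes at 82.2 ± 2.62 TPM and Actr8, also of a remodelling complex, at 32.4 ± 2.74 TPM. Below them came Actr10, also of dynactin, at 32.1 ± 2.65 TPM, Actr3b, an Arp3 paralog, at 28.2 ± 3.56 TPM, and the nuclear Actr6 and Actr5 at 14.3 ± 2.88 and 5.91 ± 0.035 TPM. Actr2, the partner of Actr3 in the Arp2/3 complex, stood at 68.9 ± 5.71 TPM. Actl6b, the neuronal counterpart of Actl6a, stood at 0.25 and 0.20 TPM. Actbl2, a further actin gene, was listed at 0 in both libraries.

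**Figure D5:**
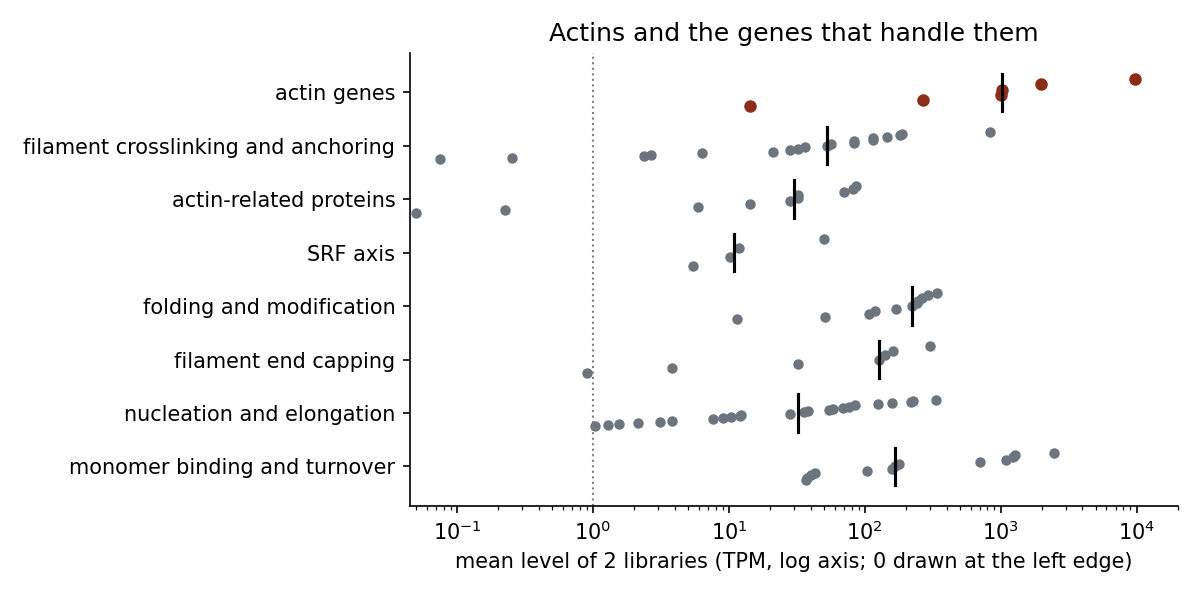
Mean TPM of 2 libraries (log axis) for the 6 actin genes (red) and for each gene of 7 lists of actin-handling genes (grey), with a black bar at each list's median and a dotted line at 1 TPM; a gene at 0 is drawn at the left edge. The actins reach higher than each list, and the medians of the lists run from 11.0 to 223 TPM.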

How the data were processed

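The deposited files give an expected count per gene and transcript, which the authors estimated from transcriptome alignments (mm10, annotation M4), per the deposited file descriptions. The deposited TPM values are scaled, per the file headers, over all listed features with spike-ins included, so every level depends on the others. In the deposited transcript files a percent column gives each transcript's part of its gene's TPM, per the file headers. Column names are those RSEM writes; not given in the sources used here were the aligner, quantifier, versions and strand setting. Estimated counts divide reads among copies.

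Symbols came from GENCODE M21 on GRCm38 (42462 of 43346 Ensembl genes matched). The 96 spike-ins, 1 phiX entry and 26248 numbered features stayed out of scaling. Expected counts were rounded to whole numbers and scaled with edgeR 4.0.16 (TMM) or DESeq2 1.42.0 size factors in R 4.3.3, and 0.5 was added. Scaling was tested on simulated counts with an assumed variation between libraries. There a share of 0.00037 of unchanged genes was 2-fold apart, against 1.01% of genes in the real libraries. The simulation thus tests the computation and not the spread of these libraries. Other steps used Python 3.11.15, pandas 2.3.3, numpy 2.4.6, scipy 1.17.1, Biopython 1.88 and matplotlib 3.10.9. Identity was counted in pairwise alignments of the coding sequences.

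The members and lists were chosen with earlier results of these data known. Named genes are the 6 actins, up to 4 highest members of each actin-handling list, its members below 1 TPM in both libraries or 2-fold apart between replicates, actin pseudogenes and actin-named genes of at least 1 TPM, the highest and lowest marker of each cell type, and transcripts holding 10% or more of their gene. Lmod1 and Tmod4, below 1 TPM in 1 library, Myog, Myh3, Klf1, Hemgn, Myh11, Tnnt2, Lrrc58 and genes overlapping an actin were named after their values were seen. So were Cnn1, Tagln, Smtn, Itga8 and Mylk. The labels call the libraries biological replicates, and with 1 group no p-value was computed. Alternatives covered the estimator, denominator, scaling, thresholds, prior and leaving out either replicate.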

Additional observations from a re-analysis of the deposited data

How the results depend on the processing

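No paired analysis was possible because both libraries belong to the same group. Actc1 made 69.2% of summed actin TPM, 64.3% of actin expected counts without length correction and 66.1% with pseudogenes and other actin-named genes in the sum; leaving out either replicate gave 68.9% to 69.6%. The count of 14 called gene pairs became 12 to 15 under the alternatives run, 15 with either library alone, where Acta2 and Actg1 each led once. No actin was 2-fold apart between replicates except on the spike-in scale, where 6 were. Of all genes, 102 were 2-fold higher and 37 lower in replicate 2; these became 154 and 36 with TPM ratios, 12806 and 8 with spike-ins, 426 and 294 with a minimum mean count of 10, 28 and 7 with 200, and 2782 and 2382 with no minimum. The 5 skeletal muscle markers at 1 TPM became 3 at 5 TPM. Windows of 100 nt were chosen after seeing the data. Depth limits Actg2 and the rarest markers most.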
